A study of Mus musculus with 2 samples.

Results

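The insulin and IGF signalling genes described here are 10 genes chosen by name: the ligands Igf1 and Igf2, the receptors Insr and Igf1r, the receptor substrates Irs1, Irs2 and Irs3, the binding proteins Igfbp3 and Igfbp5, and the glucose transporter Slc2a4. All 10 were found among the 23358 genes of the deposited table. RNA came from the ileum of BALB/c mice aged 21 days, and every mouse of both groups received a saline injection and 0.2 ml of castor oil, which causes acute diarrhea. Group D was then given 0.3 ml of saline by mouth and group E 0.3 ml of ellagic acid (EA, a plant polyphenol) at 10 mg/ml, once a day for 3 days. The GEO label gives the treatment of group D as none, and mice without castor oil are not analysed here, so the values compare EA with saline within the diarrhea model. The study describes 2 sequenced libraries per group from groups of 10 mice, but the table holds 1 value per gene and group. In what follows, group D is also called saline and group E is called EA. The values have no SD and no replicate check, and no p-value was computed.

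Levels are in FPKM, fragments scaled to the length of the transcript and to the number of mapped fragments, so that genes of different length can be set side by side. The depth behind each value and its counting error are unknown. A difference is given as the log2 ratio of EA to saline, and a gene is counted as past the threshold when it differs more than 2-fold. The cytoskeletal gene Actb was at 4630 FPKM with saline and 4745 FPKM with EA. Gapdh, which every cell uses, was listed at 0.120 FPKM and 2.98 FPKM, so low values in this table can be failed estimates. The sum of all FPKM was 459683 in group D and 589890 in group E. Defining markers of the labelled tissue were present: the ileal bile acid carrier Fabp6 was at 5698 FPKM and 3846 FPKM and the ileal bile acid transporter Slc10a2 at 234 FPKM and 142 FPKM.

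Insulin and the IGFs bind receptor tyrosine kinases, which phosphorylate docking proteins of the IRS family. These recruit PI3 kinase and so activate Akt, which drives glucose uptake, glycogen and lipid synthesis and protein synthesis, and holds FoxO transcription factors outside the nucleus. In the intestine IGF1, made by the stroma and delivered in blood, is known as a growth signal for the mucosa, and IGF binding proteins hold the ligands in the tissue and limit their access to the receptor. Irs1 and Irs2 are made in most tissues, whereas Irs3 is a substrate of rodents, known mainly from fat, and has no working counterpart in humans. Slc2a4 encodes GLUT4, the transporter that insulin moves to the surface of fat and muscle cells.

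Of the 10 genes, 9 lay within a 2-fold difference between the groups and 1, Irs3, lay past it, lower in group E. No member was higher in group E past 2-fold. This is 1 of 10, beside 8.89% of the 16679 genes above 0 in both groups (3.86% higher and 5.02% lower in group E), so the share of members past the threshold was near that of all genes. With a mean of at least 1 FPKM, 2.90% of genes lay past 2-fold, and none of the 9 members at that level did. The median log2 difference was 0.20 over the members and 0.00 over all genes above 0 in both groups. By sign, 7 members were listed higher and 3 lower in group E, but Igf1, Igf1r and Igfbp5 of the 7 turn negative when the groups are scaled to equal sums of FPKM.

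**Figure D1:**
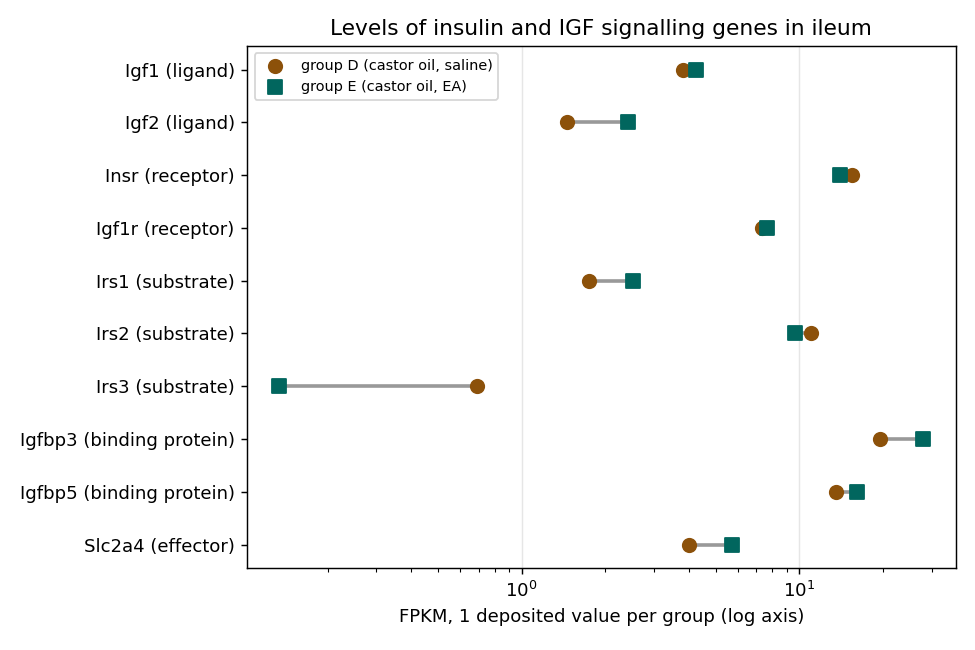
FPKM of each gene (log axis) in group D (circles) and group E (squares), 1 deposited value per group, joined by a line. The pairs of 9 genes lie close together, while Irs3 stands at 0.688 FPKM with saline and 0.134 FPKM with EA.

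The substrates carried the only large difference, and it was in the least abundant of them. Irs3 (chromosome 5, 137643032 to 137645714) was at 0.688 FPKM with saline and 0.134 FPKM with EA. This is a 5.12-fold lower value in group E (log2 difference of -2.36). Both values are low: 23.4% of the genes above 0 in group D and 9.81% of those in group E were listed below Irs3. Of the 3985 genes with a mean under 1 FPKM, 28.0% lay past 2-fold and 16.9% were lower in group E past 2-fold. A difference as large as that of Irs3 was less frequent: 2.91% of these genes had a log2 difference at or below it. At this level the 5th and 95th percentiles were -1.91 and 1.62, so Irs3 lay below the central range.

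Irs2, the substrate that in the liver is known as a target of FoxO, was the main IRS transcript of the ileum. It was at 11.0 FPKM with saline and 9.61 FPKM with EA (log2 difference of -0.19). Irs1, the major substrate in muscle and in growth control, was at 1.75 FPKM and 2.51 FPKM (log2 difference of 0.52). The 2 broad substrates thus differed in sign, by less than 2-fold each. Irs4, the fourth member of the family, was listed at 0 in both groups.

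Summed over Irs1, Irs2 and Irs3, the level was 13.4 FPKM with saline and 12.3 FPKM with EA. Irs2 made up 81.9% of this sum in group D and 78.4% in group E, Irs1 13.0% and 20.5%, and Irs3 5.12% and 1.10%. Irs2 therefore stood 6.29 times above Irs1 in group D and 3.83 times in group E. Against Irs3, Irs2 was 16.0 times higher in group D and 71.6 times higher in group E.

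**Figure D2:**
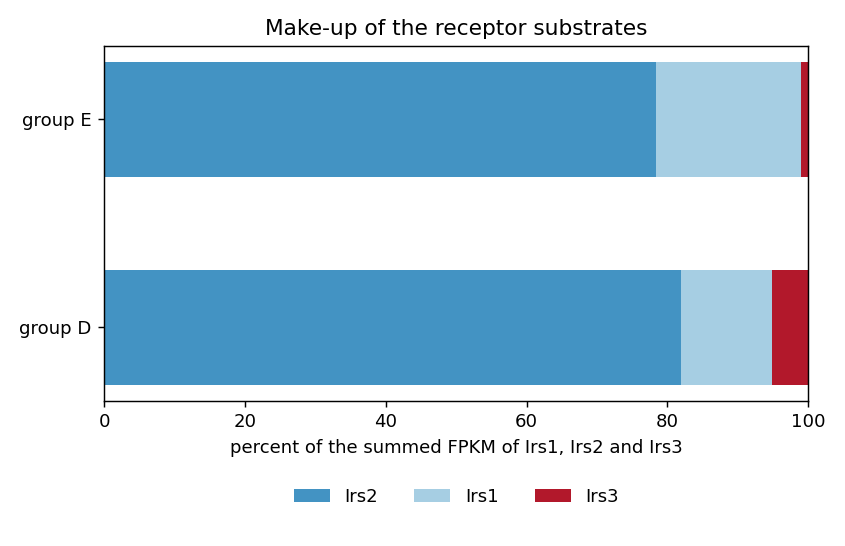
Share of the summed FPKM of Irs1, Irs2 and Irs3 that each gene took in group D and group E (percent, 1 value per group). Irs2 took 81.9% and 78.4%, and the share of Irs3 was 5.12% and 1.10%.

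The start regions of the 3 substrate genes are shown side by side, and the Irs3 window has fewer CpG dinucleotides than those of Irs1 and Irs2. The windows span 250 bases before to 50 after the start site in RefSeq (GRCm38.p6, all on the minus strand, written 5′ to 3′ along the gene). The last 20 bases of the window are found in the GENCODE transcript of Irs1 and in 1 of the 2 of Irs3, but not in that of Irs2, so the Irs2 window is not borne out by that annotation. The positions are chr1:82291390-82291689 for Irs1, chr8:11008880-11009179 for Irs2 and chr5:137645665-137645964 for Irs3. Capitals mark every match to 6 motifs, searched on both strands: the nuclear receptor motif AGGTCA, the FoxO site GTAAACA, the Sp1 box GGGCGG, the TATA box TATAAA, the CCAAT box CCAAT and the E-box CACGTG.
Irs1: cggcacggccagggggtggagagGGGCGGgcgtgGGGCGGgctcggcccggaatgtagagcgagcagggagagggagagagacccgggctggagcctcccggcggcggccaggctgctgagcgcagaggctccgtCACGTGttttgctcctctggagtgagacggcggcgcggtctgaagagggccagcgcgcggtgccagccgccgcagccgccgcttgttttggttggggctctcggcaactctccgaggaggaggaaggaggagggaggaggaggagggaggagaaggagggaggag
Irs2: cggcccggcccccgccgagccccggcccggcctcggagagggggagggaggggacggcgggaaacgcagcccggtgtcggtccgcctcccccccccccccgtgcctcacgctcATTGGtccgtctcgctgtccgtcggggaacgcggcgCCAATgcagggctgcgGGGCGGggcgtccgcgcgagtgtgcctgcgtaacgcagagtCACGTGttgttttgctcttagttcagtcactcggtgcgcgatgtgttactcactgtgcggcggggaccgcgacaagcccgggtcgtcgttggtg
Irs3: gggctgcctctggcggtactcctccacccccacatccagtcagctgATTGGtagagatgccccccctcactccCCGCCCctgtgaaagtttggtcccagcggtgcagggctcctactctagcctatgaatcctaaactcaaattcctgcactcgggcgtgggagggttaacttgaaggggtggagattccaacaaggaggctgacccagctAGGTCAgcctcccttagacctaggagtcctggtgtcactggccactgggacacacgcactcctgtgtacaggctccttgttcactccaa

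The Irs3 window held 58.3% G and C and 6 CpG dinucleotides. The Irs1 window held 71.3% and 28 CpG and the Irs2 window 72.0% and 41 CpG, while the median over 32851 windows of all genes was 52.7% and 7 CpG. Low counts were not particular to Irs3: the Igf1 window also held 6 CpG, that of Igfbp5 10 and an Igf2 window 2. These genes lay within 2-fold. Among the 3 substrate windows, AGGTCA was found only in that of Irs3 (1 match), and 16.3% of all windows hold it. The Igf1r and Igf1 windows and an Igf2 window held 1 match each. CACGTG was found once each in the Irs1 and Irs2 windows and not in that of Irs3, against 7.15% of all windows. GGGCGG was found 2 times for Irs1, 1 time for Irs2 and 1 time for Irs3 (35.7% of all windows). CCAAT was found 2 times for Irs2 and 1 time for Irs3 (37.4% of all windows). Neither GTAAACA (3.65% of all windows) nor TATAAA (13.6%) was found in the 3 windows, and no match overlapped one of another motif. A match is a description of the letters and not a binding site. In the GENCODE annotation Irs1 and Irs2 have 2 exons each, and Irs3 has a transcript of 2 exons and 2337 bases beside a shorter one of 3 exons and 1281 bases.

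Both receptors lay within 2-fold. Insr, the insulin receptor (chromosome 8, 3150922 to 3279617), was at 15.4 FPKM with saline and 14.0 FPKM with EA (log2 difference of -0.14). Igf1r, the receptor of IGF1 and IGF2 (chromosome 7, 67952257 to 68233667), was at 7.35 FPKM and 7.65 FPKM (log2 difference of 0.06). With sums of FPKM made equal, the differences were -0.50 for Insr and -0.30 for Igf1r. Insr was thus 2.10 times the level of Igf1r in group D and 1.83 times in group E. The list of 4 receptors also holds Igf2r, which clears IGF2 and carries lysosomal enzymes, at 31.4 FPKM and 32.9 FPKM, and Insrr, an orphan relative of the insulin receptor, at 0.308 FPKM and 0.221 FPKM. None of the 4 lay past 2-fold, beside 8.89% of all genes. The Igf1r start window (chr7:67952007-67952306) held 76.0% G and C and 48 CpG, the highest values among the members with a window.

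Both ligands were listed higher in group E, Igf1 only as deposited and not after scaling to equal sums of FPKM (-0.21). Igf1 (chromosome 10, 87859056 to 87937047), which mediates much of the growth effect of growth hormone, was at 3.82 FPKM with saline and 4.23 FPKM with EA (log2 difference of 0.15). Igf2 (chromosome 7, 142650768 to 142670356), an imprinted growth factor of the fetus, was at 1.45 FPKM and 2.42 FPKM (log2 difference of 0.73). Igf2 was 1.66 times higher in group E, the largest difference among the members within 2-fold. Of the genes with a mean of 1 to 10 FPKM, the central range from the 5th to the 95th percentile ran from -0.75 to 0.63, so Igf2 lay just above it and Igf1 inside it. The position of Igf2 in the table is shared with its antisense gene Igf2as, which was listed at 0.0178 FPKM and 0.0355 FPKM, and with the microRNA gene Mir483, listed at 0 in both groups. A stranded kit was used, but the sources used here do not say whether strand was used in counting.

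The ratio of Igf1 to Igf2 was 2.63 in group D and 1.75 in group E. The insulin genes Ins1 and Ins2 were listed at 0 in both groups, as were the relaxin-family genes Insl5, Rln1 and Rln3. Among the other related peptides, Insl6 was at 20.5 FPKM with saline and 12.2 FPKM with EA. Insl3 was listed at 0.000957 FPKM and 1.01 FPKM, but it shares its position with Jak3 (6.06 FPKM and 4.92 FPKM), and its group D value is so near 0 that no fold is given.

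Igfbp3 was the most abundant member in both groups. Both binding proteins were listed higher in group E, although Igfbp5 turns negative (-0.11) when the groups are scaled to equal sums of FPKM. Igfbp3 (chromosome 11, 7206091 to 7213923), the main carrier of IGFs in blood and a product of the stroma, was at 19.6 FPKM with saline and 27.9 FPKM with EA (log2 difference of 0.52). Igfbp5 (chromosome 1, 72858065 to 72874865), which binds IGFs in the extracellular matrix, was at 13.6 FPKM and 16.2 FPKM (log2 difference of 0.25). For genes with a mean of 10 to 100 FPKM the 5th and 95th percentiles were -0.41 and 0.53. Igfbp3 lay just inside this range, and Igfbp5, Insr and Irs2 lay well inside it.

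The sum of Igfbp3 and Igfbp5 was 33.1 FPKM with saline and 44.1 FPKM with EA, and that of Igf1 and Igf2 was 5.28 FPKM and 6.65 FPKM. Binding protein transcripts therefore exceeded ligand transcripts 6.28 times in group D and 6.64 times in group E. Of the 9 genes on the list of binding proteins, 7 were above 0 in both groups, with 6 listed higher and 1 lower in group E and a median log2 difference of 0.41. Past 2-fold were Igfbp6, which prefers IGF2, at 0.720 FPKM and 1.71 FPKM (log2 difference of 1.25), and Igfbp2 at 0.110 FPKM and 0.0487 FPKM, both at low levels. This is 28.6% of the 7, beside 8.89% of all genes and 28.0% of those with a mean under 1 FPKM, where Igfbp2 lay. Igfbp6 falls within 2-fold under scaling to equal sums of FPKM or a pseudocount of 1 FPKM, and Igfbp2 under a pseudocount of 0.1 or 1 FPKM. Under that scaling 4 of the 7 were higher and 3 lower, with a median of 0.05. Igfbp7, a low-affinity relative made by vessels and stroma, was at 37.0 FPKM and 59.9 FPKM (log2 difference of 0.70), and Igfbp4 at 37.0 FPKM and 39.4 FPKM. Igfbp1, a gene of the liver, was listed at 0 in both groups.

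Markers of stroma and vessels were listed beside these genes. Of 10 endothelial markers, 9 were higher in group E and none lay past 2-fold (median log2 difference of 0.45, summed level 93.5 FPKM and 118 FPKM), with Plvap at 29.3 FPKM and 33.4 FPKM, Pecam1 at 15.0 FPKM and 21.4 FPKM, Kdr at 11.5 FPKM and 14.0 FPKM and Cdh5 at 6.48 FPKM and 11.3 FPKM. Of 10 fibroblast markers, 7 were higher and 3 lower (median of 0.12, summed level 352 FPKM and 371 FPKM), and 1, Pi16, was past 2-fold at 0.722 FPKM and 1.63 FPKM. Of 10 smooth muscle markers, 9 were higher, none past 2-fold (median of 0.32, summed level 850 FPKM and 948 FPKM). These tallies depend on the scaling: with sums of FPKM made equal, 6 of 10 endothelial markers were higher (median of 0.09), 2 of 10 fibroblast markers (median of -0.24) and 2 of 10 smooth muscle markers (median of -0.04), and Pi16 was within 2-fold. The part of these cell types in the values of Igfbp3, Igfbp5, Igf1 and Igf2 was not tested. In bulk tissue, more cells of a type and more RNA per cell cannot be told apart.

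Slc2a4 (chromosome 11, 69942286 to 69948190) was at 4.01 FPKM with saline and 5.74 FPKM with EA (log2 difference of 0.52), inside the central range of genes at its level. It was a minor glucose transporter of this tissue. Slc5a1, the sodium-glucose cotransporter of the enterocyte brush border, was at 436 FPKM and 408 FPKM, which is 109 times and 71.1 times the level of Slc2a4. Of the 12 genes on the glucose transporter list, 4 were listed higher and 8 lower in group E (median of -0.09). None of them lay past 2-fold, beside 8.89% of all genes. With sums of FPKM made equal, 1 of them, Slc2a6, lay past 2-fold, lower in group E. Slc2a2, the basolateral transporter GLUT2, was at 11.7 FPKM and 18.3 FPKM, and Slc2a9, a urate transporter, at 30.2 FPKM and 22.4 FPKM. Of 13 genes for the storage and movement of GLUT4 vesicles found in the table, none lay past 2-fold, and their log2 differences ran from -0.25 to 0.29. Rab10, the GTPase that delivers these vesicles in fat cells, was at 59.8 FPKM and 63.7 FPKM, and the related Rab8a at 75.3 FPKM and 92.0 FPKM.

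**Figure D3:**
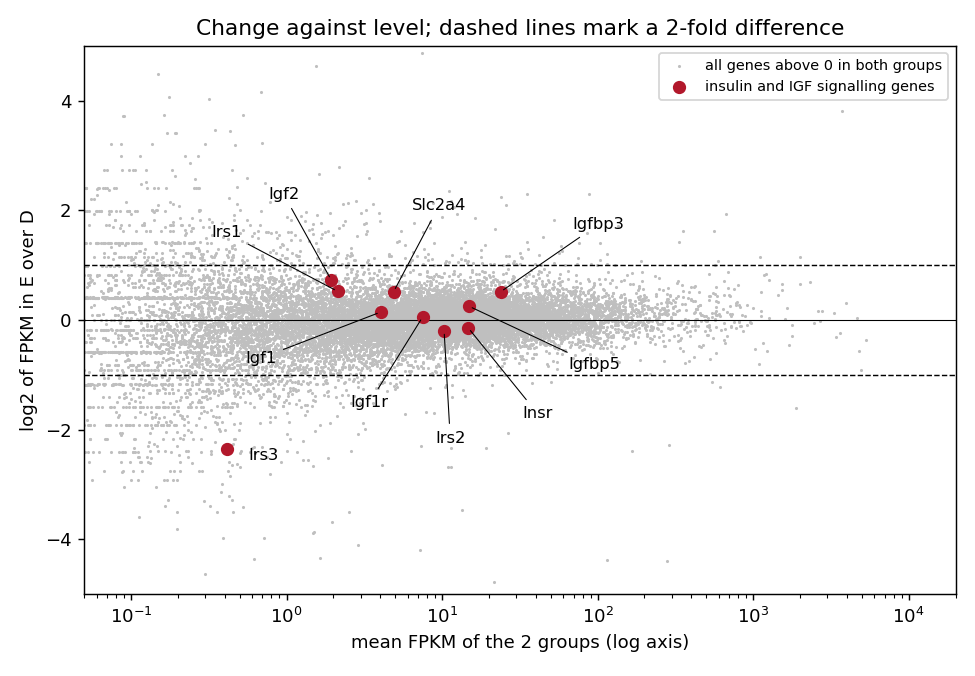
Log2 ratio of EA to saline (vertical axis, group E over D) against the mean FPKM of the groups (log axis), for all genes above 0 in both groups (grey) and the 10 members (red), with dashed lines at a 2-fold difference. The spread of all genes widens below 1 FPKM, where Irs3 lies at -2.36, and genes with a mean under 0.05 FPKM or a log2 difference beyond 5 are not drawn.

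In order of level in group D the members were Igfbp3, Insr, Igfbp5, Irs2, Igf1r, Slc2a4, Igf1, Irs1, Igf2 and Irs3. The order in group E was the same except that Igfbp5 stood above Insr. With 1 value per group there is no spread by which neighbours in this order could be told apart. Of the genes above 0, 77.9% in group D and 83.5% in group E were listed below Igfbp3, the most abundant member.

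Downstream of the receptors, none of the 14 genes of the PI3K and Akt list lay past 2-fold, with log2 differences from -0.41 to 0.31 and a median of -0.03. Akt1, the kinase of growth and survival, was at 45.3 FPKM with saline and 56.0 FPKM with EA, and Pik3r1, the regulatory subunit that binds IRS proteins, at 33.4 FPKM and 33.2 FPKM. None of the 16 negative regulators lay past 2-fold either (median of -0.08). All genes of these lists had a mean of at least 1 FPKM, where only 2.90% of all genes lay past 2-fold. Ptprf, a receptor phosphatase, was at 70.6 FPKM and 71.0 FPKM, and Phlpp2, which dephosphorylates Akt, at 43.9 FPKM and 32.5 FPKM. On the list of 14 substrates and adaptors Irs3 was the sole gene past 2-fold of 13 above 0 in both groups (median of -0.03). This is 7.69%, near the 8.89% of all genes. The adaptors Crk (59.2 FPKM and 60.4 FPKM) and Grb2 (39.1 FPKM and 34.7 FPKM) had the highest means there.

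None of the 15 genes of mTOR and protein synthesis (median of 0.08), the 11 FoxO genes and their targets (median of -0.09) or the 8 MAPK genes found (median of -0.16) lay past 2-fold. All had a mean of at least 1 FPKM, where only 2.90% of all genes lay past 2-fold. Rps6, the ribosomal protein phosphorylated by S6 kinase, was at 276 FPKM with saline and 363 FPKM with EA, and Eif4ebp2, a translation repressor, at 40.2 FPKM and 44.1 FPKM. Pck1, the gluconeogenic enzyme that FoxO1 drives in liver, was at 71.4 FPKM and 58.2 FPKM, Ccng2 at 55.1 FPKM and 37.4 FPKM, and the kinase gene Mapk3 at 149 FPKM and 160 FPKM.

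Of the metabolic targets of insulin, 10 of 13 genes above 0 in both groups were listed higher in group E, with a median log2 difference of 0.41, and 9 of 13 with a median of 0.05 when sums of FPKM were made equal. Fasn, the fatty acid synthase, was the only one past 2-fold, at 23.2 FPKM with saline and 81.9 FPKM with EA (log2 difference of 1.82). This is 7.69% of the 13, beside 8.89% of all genes. Acaca, which makes the malonyl-CoA that Fasn uses, was at 14.2 FPKM and 24.2 FPKM. The insulin-responsive regulator Srebf1 was at 12.5 FPKM and 14.9 FPKM, and Pde3b, through which insulin restrains lipolysis in fat cells, at 6.47 FPKM and 10.5 FPKM.

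Upstream of Igf1, none of the 6 genes above 0 on the growth hormone list lay past 2-fold (median of -0.04), beside 8.89% of all genes. Jak2, the kinase of the growth hormone receptor, was at 48.4 FPKM with saline and 43.5 FPKM with EA, and the prolactin receptor Prlr at 39.9 FPKM and 41.8 FPKM. Ghr, the growth hormone receptor itself, was at 11.0 FPKM and 20.1 FPKM (log2 difference of 0.87). None of the 4 genes for the release of IGFs from their binding proteins lay past 2-fold (median of 0.21). The protease Pappa, which cuts IGF binding proteins, was at 5.25 FPKM and 5.06 FPKM, and its inhibitor Stc1 at 2.18 FPKM and 2.76 FPKM.

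**Figure D4:**
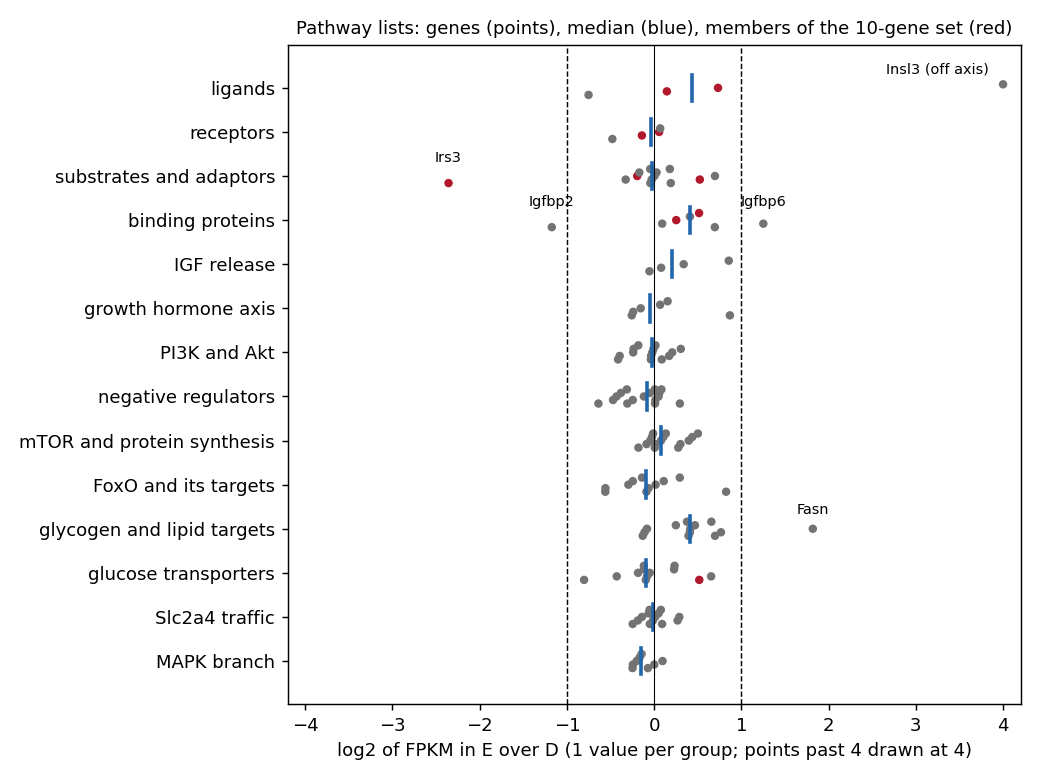
Log2 ratio of EA to saline (group E over D) for the genes above 0 in both groups on 14 pathway lists (points, members of the 10-gene set in red, list medians in blue), with dashed lines at a 2-fold difference. Irs3, Fasn, Igfbp6, Igfbp2 and Insl3, the last drawn at the edge of the axis, are the 5 genes past the lines.

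Over the 14 pathway lists together, 5 of 140 genes above 0 in both groups lay past 2-fold, 3 higher and 2 lower in group E. This is 3.57%, beside 8.89% of all genes, and the median log2 difference was 0.00 for the lists and 0.00 for all genes. The 2 shares are not at like levels: 131 of the 140 had a mean of at least 1 FPKM, against 12694 of all 16679 genes. Among the 131, 2 lay past 2-fold, both higher (Fasn and Igfbp6), beside 2.90% of all genes at that level. In the KEGG annotation of the deposited table, 138 genes carry the insulin signaling pathway and 129 of them were above 0 in both groups, with a median of 0.01. Of these, 3 were higher past 2-fold (Fasn, Prkar2b and Phkg1) and 3 lower (Irs3, Pygl and Shc3), together 4.65%, beside 8.89% of all genes. Phkg1 (0.0192 FPKM and 0.101 FPKM), Shc3 (0.154 FPKM and 0.0410 FPKM) and Irs3 had means under 1 FPKM. Among the 117 KEGG genes with a mean of at least 1 FPKM, 2 were higher and 1 lower past 2-fold, beside 2.90% of all genes at that level. Pygl, which breaks down glycogen in liver, was at 12.2 FPKM with saline and 2.47 FPKM with EA, and Prkar2b, a regulatory subunit of protein kinase A, at 2.76 FPKM and 6.40 FPKM.

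Irs3 and Slc2a4 are both known from fat cells, and markers of fat cells were listed with large differences in both directions. Of 7 markers on the list, taken here as defining fat cells, 6 were higher in group E. The adipokine Adipoq was at 0.120 FPKM with saline and 63.4 FPKM with EA, the lipid droplet protein Plin1 at 0.0495 FPKM and 15.2 FPKM, and Cidec at 32.9 FPKM and 83.4 FPKM. Cfd, Retn and Lep, each listed at 0 with saline, were at 274 FPKM, 53.4 FPKM and 1.53 FPKM with EA. The seventh, Fabp4, was at 536 FPKM with saline and 25.6 FPKM with EA. Irs3, lower in group E, thus shares its direction with Fabp4, Lpl (41.8 FPKM and 1.52 FPKM) and Thrsp (51.0 FPKM and 0.989 FPKM), while Slc2a4 shares its direction with the other group of markers.

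Over the whole list of 18 fat cell markers, 14 were above 0 in both groups, 8 higher and 3 lower in group E past 2-fold. This is 78.6%, beside 8.89% of all genes. Cidec and Pparg fall within 2-fold when sums of FPKM are made equal, and Cidea and Pparg with a pseudocount of 1 FPKM. The summed level of the whole list was 732 FPKM and 997 FPKM. The sum of the 7 defining markers was 569 FPKM and 516 FPKM, of which Fabp4 alone was 536 FPKM and 25.6 FPKM. Genes on this list thus do not give a common direction. Whether each of them stands for fat cells in these values was not tested. Pparg, the nuclear receptor of fat cell formation, was at 4.04 FPKM with saline and 8.40 FPKM with EA. The part of fat tissue in the values of Irs3 and Slc2a4 was not tested. Of 12 markers of striated muscle, the other main site of Slc2a4, 2 (Myh4 and Mb) were listed at 0 in both groups, 3 more in group D and 1 more in group E. Their summed level was 7.87 FPKM and 6.69 FPKM, with Ckm at 3.05 FPKM and 3.47 FPKM and Acta1 at 2.57 FPKM and 0.686 FPKM. Of the 6 muscle markers above 0 in both groups, 3 were lower in group E past 2-fold, Acta1 among them, and none higher. The median log2 difference of the 6 was -0.535. With a pseudocount of 0.1 or 1 FPKM, Acta1 alone lay past 2-fold. The part of muscle in the values of Slc2a4 was not tested.

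**Figure D5:**
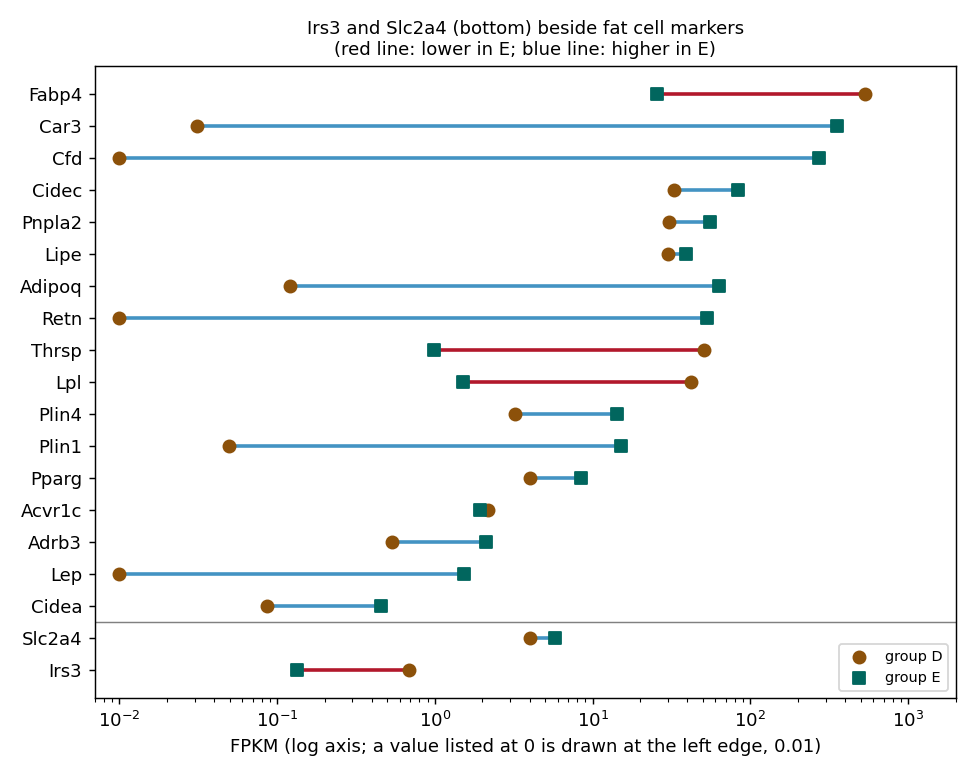
FPKM (log axis) of Irs3 and Slc2a4 (bottom) and of the fat cell markers above 0 in either group, in group D (circles) and group E (squares), with red lines for genes lower and blue lines for genes higher in group E. Values listed at 0 are drawn at the left edge. Fabp4, Lpl and Thrsp run to lower values in group E, as Irs3 does, and Cfd, Adipoq, Retn, Plin1 and Car3 run to higher values.

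Markers of other cell types had lower shares past 2-fold than the 78.6% of the fat cell list. Striated muscle came next, with 3 of 6 genes above 0 in both groups past 2-fold, all lower in group E. The share over all genes was 8.89%. Of 12 enterocyte markers 1 (8.33%) was past 2-fold, higher in group E, and the list's median was -0.08. Of 10 macrophage markers none lay past 2-fold (median of -0.04), and of 10 enteroendocrine markers 2 did (20.0%), both higher (median of 0.27). The hepatocyte list had 2 genes lower past 2-fold of 6 above 0 in both groups (33.3%, median of -0.81). The pancreas list had 1 of 3 (33.3%), also lower. These hepatocyte and pancreas genes had means of at most 1.01 FPKM, and 28.0% of all genes with a mean under 1 FPKM lay past 2-fold. With a pseudocount of 1 FPKM none of them did. With sums of FPKM made equal, no enteroendocrine marker lay past 2-fold (median of -0.09). The enterocyte marker Slc10a2 was then lower past 2-fold, as were further genes of the hepatocyte list. Alb was at 0.111 FPKM with saline and listed at 0 with EA, and Prss1 and Pnlip at 0 in both.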

How the data were processed

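Ileum RNA of groups D and E was sequenced as paired-end reads on an Illumina HiSeq instrument. The molecule is labelled genomic DNA in GEO, while the extraction protocol describes RNA. The authors used Bowtie 2.2.3 to index the genome, TopHat 2.0.12 for alignment and DESeq 1.18.0 for the comparison. The deposited FPKM are 1 value per gene and group, and the sources used here do not say how libraries were joined and scaled. The fold changes, P-values, q-values and DEG calls of the same table, and a second table on pathways, are the authors' own comparisons and were not used. DESeq could not be rerun on FPKM.

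Log2 ratios were taken without a pseudocount for genes above 0 in both groups, and counting was tested on simulated data. Members, 14 pathway lists and 10 marker lists were chosen with earlier results of these data known. Named are all members and, in each pathway list, up to 4 genes past 2-fold with a mean of at least 1 FPKM or, where there are none, the 2 with the highest mean, and up to 4 markers per list by mean. A gene that this rule names is not reported here. Acaca, Srebf1, Pde3b, Ghr, Slc2a2, Insl3, Igfbp1, Igfbp2, Igfbp4, Igfbp7, Irs4, Insrr, Pygl, Prkar2b, Phkg1, Shc3, Pi16, Slc10a2, Slc2a6, Actb, Gapdh, the genes sharing a position, the markers named at 0, the fat cell markers beyond the 4 and the genes of observations were picked after their values were seen. Alternatives were pseudocounts of 0.1 and 1 FPKM, a minimum mean of 1 FPKM, 3 scalings and folds of 1.5 and 3, and after seeing the data the KEGG list. Positions are those of the table with 1 added to each start. The sources used here name no build for them, and 99.4% of 21401 matched symbols overlap the same gene in GRCm38.p6. RefSeq start windows were found for 8 of the 10 members, not for Insr and Slc2a4. Python 3.11.15, numpy 2.4.6, pandas 2.3.3 and matplotlib 3.10.9 were used.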

Additional observations from a re-analysis of the deposited data

How the results depend on the processing

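No paired analysis was possible because the table holds 1 value per group, so no replicate could be left out either. The lower value of Irs3 is the result most open to processing: with a pseudocount of 1 FPKM its log2 difference was -0.57 and 0 members lay past 2-fold (0 lower), and with a minimum mean of 1 FPKM Irs3 was not counted and 0 members of 9 lay past 2-fold (0 lower). At a fold of 1.5, 2 members were past the threshold, Irs3 and, with a log2 difference of 0.73, Igf2 (1 higher). The count of 5 pathway genes past the threshold became 2 with a pseudocount of 1 FPKM, 2 with the minimum mean, 3 at a fold of 3 and 18 at a fold of 1.5. Counts over all genes moved likewise, from 8.89% past 2-fold to 1.09% with a pseudocount of 1 FPKM, 4.33% with one of 0.1 FPKM, 2.90% with the minimum mean, 3.83% at a fold of 3 and 19.8% at a fold of 1.5. Scaling to the sum of FPKM shifted every log2 difference down by 0.36 and split all genes past 2-fold into 411 higher and 1532 lower, against 644 and 838 as deposited, and turned the sign of 3 uncalled members, Igf1r, Igf1 and Igfbp5. Centring on the median gene and upper quartile scaling shifted values by 0.01 and 0.03 and changed no count of members. With scaling to the sum of FPKM, 6 pathway genes lay past 2-fold: Insl6 and Slc2a6, both lower, were added and Igfbp6 was lost, while Irs3, Igfbp2, Insl3 and Fasn stayed past it. The KEGG list gave 6 genes past 2-fold. Depth is unknown, so what counting error adds to values under 1 FPKM cannot be given.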

Other observations

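Beyond the classical binding proteins, 28 genes of the deposited table carry a molecular function term for insulin-like growth factor binding, a wider set that includes integrins and matrix proteins. Of these, 24 were above 0 in both groups, 13 listed higher and 11 lower in group E, with a median log2 difference of 0.06. Igfbp6 and Igfbp2 were the 2 past 2-fold, which is 8.33% and near the 8.89% of all genes. The matrix protein Ctgf was at 3.67 FPKM with saline and 5.29 FPKM with EA, its relative Cyr61 at 2.69 FPKM and 3.34 FPKM, and the protease Htra1, which can cut IGF binding proteins, at 8.72 FPKM and 9.46 FPKM. The integrin chain Itga6, an adhesion receptor of the epithelial base, was at 95.4 FPKM and 91.4 FPKM.

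The position listed for Irs2 (chromosome 8, 10986964 to 11054541) extends beyond its start window (chr8:11008880-11009179, minus strand). It is shared with the gene 9530052E02Rik, listed at 0.147 FPKM in group E and at a value near 0 in group D. Irs2 itself was at 11.0 FPKM with saline and 9.61 FPKM with EA.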
